A study of Mus musculus with 14 samples.

Results

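A set of 10 genes of the BCL2 family were followed: the survival genes Bcl2, Bcl2l1, Mcl1 and Bcl2a1b, the pore-forming genes Bax and Bak1, and the death-promoting genes Bid, Bcl2l11, Bbc3 and Pmaip1. They were taken by symbol from 2 bulk RNA-sequencing count tables, where they are 10 of 50508 genes, and all 10 were found in both tables and passed the filter on low counts in both. The libraries fell into 5 groups of 2. The labels' CD8SP (conventional thymocytes with CD8 alone) and ILTCkP (thymic progenitors of the killer-type innate-like αβ T cells called ILTCk) came from C57BL/6 mice. The other groups were a conventional T cell group gated on PD-1, PD1+ Tconv, and ILTCk split by the surface marker NK1.1 into NK1.1- ILTCk and NK1.1+ ILTCk. Their model is given as retrogenic, a term for mice whose blood system is rebuilt from stem cells that carry an added T cell receptor gene. By the protocols given with the labels, NK1.1+ ILTCk were tumour-infiltrating CD45+ TCRγδ- TCRβ+ CD4- CD8α+ cells without PD-1, and the PD1+ Tconv differed in the gate by carrying PD-1 and lacking NK1.1. The thymic cells did not bind the CD1d tetramer, and their gate is given only in part. Not stated in the labels used here are the gate and tissue of the NK1.1- ILTCk, the added receptor, the tumour model of the retrogenic mice and the ages. For both ILTCk groups, the sample titles say ILTCk and the cell type field says ILTCkP. The series design calls the replicates biological, without naming the animals; p-values therefore speak for the spread between these libraries only. The 4 single-cell libraries of the series were not analysed here.

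BCL2 family proteins decide whether the outer membrane of the mitochondrion is opened, which releases cytochrome c and starts the caspases. BCL2, BCL-xL (from Bcl2l1), MCL1 and A1 (from Bcl2a1 genes) hold the pore-forming proteins BAX and BAK in check, while BH3-only proteins such as BIM (Bcl2l11), PUMA (Bbc3), NOXA (Pmaip1) and the caspase-cleaved BID bind and oppose the survival proteins or activate the pore formers. In the thymus, BIM and PUMA are known for removing strongly self-reactive thymocytes, and BCL2 for keeping mature T cells alive.

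The deposited counts summed to between 16530085 and 32097301 per library. Levels below are counts per 1000000 counts (CPM) scaled by the trimmed mean of M values (TMM) within each table. The thymic table and the table with the other 3 groups, called the tumour table here, were normalized separately, so levels set side by side across them carry no test. Of the gated surface markers, NK1.1 and PD-1 went with their labels, while Cd8a was uneven. Klrb1c, which encodes NK1.1, read 309 and 68.6 CPM in NK1.1+ ILTCk and at most 39.5 CPM in any other library. Pdcd1, which encodes PD-1, read 753 and 518 CPM in PD1+ Tconv and at most 29.2 CPM in both ILTCk groups. It also read 1325 and 1269 CPM in ILTCkP, against 24.3 and 26.9 CPM in CD8SP. Cd8a, which encodes CD8α, read 147 to 887 CPM in NK1.1+ ILTCk and 288 to 477 CPM in NK1.1- ILTCk. In PD1+ Tconv it read 809 to 1393 CPM. Cd4 read at most 33.9 CPM in the tumour table. In the thymus, the 5 T cell markers (Cd3e, Cd3d, Cd3g, Cd247, Lck) summed to between 5287 and 7182 CPM and the 10 macrophage and monocyte markers to between 17.5 and 28.1 CPM. In the tumour table, the T cell sum was lower, at 884 to 1275 CPM in NK1.1- ILTCk, 529 to 2639 CPM in NK1.1+ ILTCk and 2492 to 3772 CPM in PD1+ Tconv. The macrophage sum there was 2570 to 2915, 6362 to 17919 and 143 to 911 CPM in that order, with 10 of 10 markers higher in each ILTCk group than in PD1+ Tconv and no overlap of libraries. The 5 epithelial and mammary markers were Epcam, Krt8, Krt18, Krt14 and Csn3. They summed to 5413 to 9478, 5636 to 6167 and 1871 to 2034 CPM in the same order. The 6 dendritic cell markers were H2-Aa, H2-Ab1, H2-Eb1, Cd74, Flt3 and Xcr1. Their sums were 2263 to 5651, 9262 to 14549 and 392 to 1024 CPM. In NK1.1- ILTCk the epithelial sum was above the macrophage sum. Salivary and lacrimal gland genes summed to 266431 CPM in PD1+ Tconv replicate 2 and to 38535 CPM in NK1.1- ILTCk replicate 1. In the remaining tumour-table libraries they summed to between 326 and 2003 CPM. In such bulk samples, fewer cells of a type and less RNA per cell cannot be told apart.

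**Figure D1:**
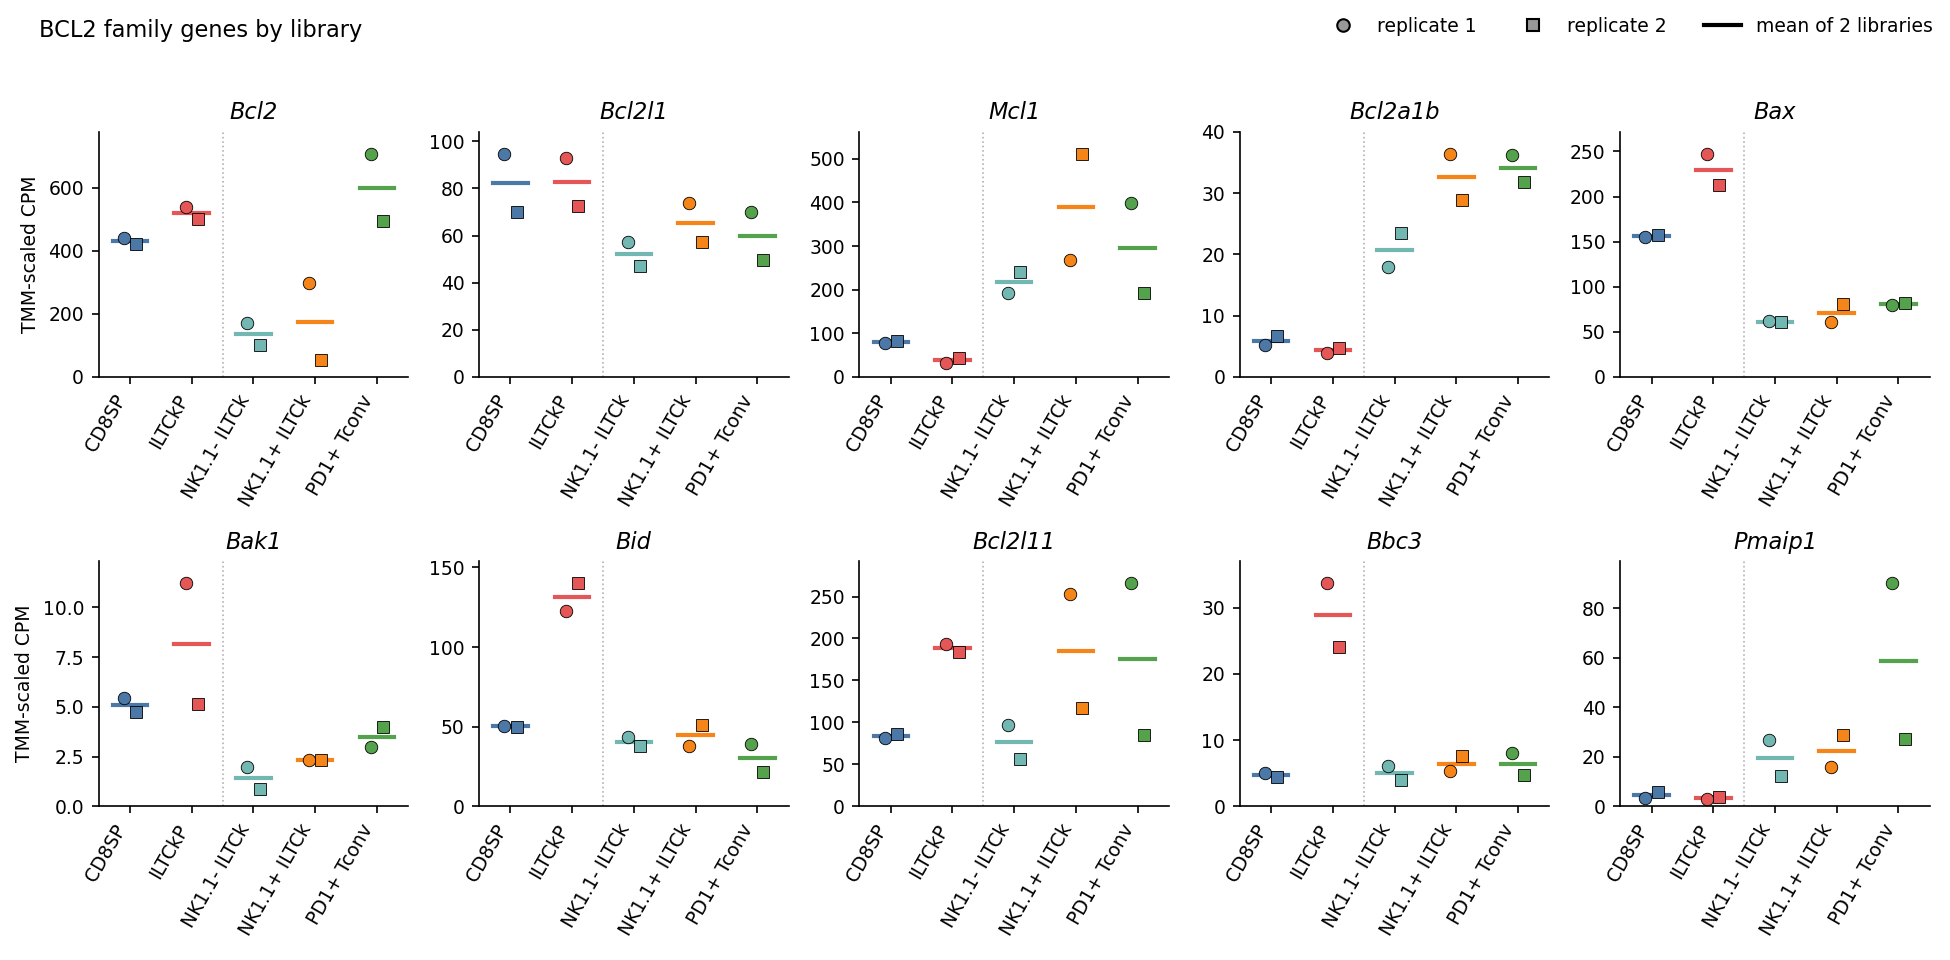
TMM-scaled CPM of the 10 genes in each library (circle, replicate 1; square, replicate 2; bar, mean of 2 libraries), with a dotted line between the thymic and the tumour table, which were normalized separately. Bid, Bcl2l11 and Bbc3 are higher in both ILTCkP libraries than in both CD8SP libraries, and within the tumour table Bcl2 is highest in the 2 PD1+ Tconv libraries.

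The thymic comparison asked how ILTCkP differ from conventional CD8SP thymocytes. Of the 4 BH3-only genes, Bbc3, Bid and Bcl2l11 rose in ILTCkP, by 2.60, 1.38 and 1.17 on the log2 scale, and no survival or pore-forming gene passed the test in either direction. The 3 of 10 genes called at an adjusted p under 0.05 by edgeR's quasi-likelihood test stand beside 4.71% of the 14634 genes tested, and all 3 were among the calls higher in ILTCkP, a direction that held 3.38% of all genes tested. The 2 libraries of a group did not overlap those of the other for 7 of 10 genes, 5 above and 2 below, against 58.2% of all genes, 28.8% above and 29.3% below. DESeq2 called 4 of 10, these 3 and Mcl1, beside 13.6% of all genes. The median log2 fold change of the 10 was 0.41, and that of all genes tested was 0.01.

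Among the survival genes, Bcl2 (chr1:106538178-106714274, minus strand; this and later gene positions are on GRCm38) read 442 and 422 CPM in CD8SP and 538 and 502 CPM in ILTCkP. Both ILTCkP libraries were above both CD8SP libraries, but by little: the log2 fold change was 0.27 ± 0.20 (SE) and did not pass edgeR's test (adjusted p = 0.469). Bcl2l1 (chr2:152780668-152831728, minus strand) was level between the groups, at 94.6 and 70.0 CPM in CD8SP and 93.0 and 72.4 CPM in ILTCkP, with overlapping libraries and a log2 fold change of 0.01 ± 0.27 (SE; edgeR adjusted p = 0.990). Mcl1, which encodes a short-lived survival protein (chr3:95658788-95663176, plus strand), read 78.6 and 83.3 CPM in CD8SP and 32.8 and 43.9 CPM in ILTCkP. Both ILTCkP libraries lay below both CD8SP libraries. Its log2 fold change of -1.08 ± 0.27 (SE) had an adjusted p of 0.0880 in edgeR, short of the threshold, and 0.00974 in DESeq2, past it. With the replicate number as a block edgeR gave 0.0212 and without the filter on low counts 0.0193, while limma-voom gave 0.0739. Bcl2a1b was low, at 3.90 to 6.64 CPM over the 4 thymic libraries, and had a log2 fold change of -0.46 ± 0.42 (SE; edgeR adjusted p = 0.569).

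Of the pore formers, Bax (chr7:45461697-45466898, minus strand) read 156 and 158 CPM in CD8SP and 247 and 212 CPM in ILTCkP. The libraries did not overlap, and the log2 fold change of 0.55 ± 0.21 (SE) had an edgeR adjusted p of 0.200. Bak1 (chr17:27019810-27029009, minus strand) was low, at 5.45 and 4.71 CPM in CD8SP and 11.2 and 5.12 CPM in ILTCkP. Its log2 fold change was 0.68 ± 0.51 (SE; edgeR adjusted p = 0.474). The value rested on ILTCkP replicate 1: it was 0.02 without that library and 1.14 without ILTCkP replicate 2.

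The calls in the thymus all fell among the BH3-only genes. Bbc3, which encodes PUMA (chr7:16308393-16318205, plus strand), read 5.03 and 4.46 CPM in CD8SP and 33.7 and 24.1 CPM in ILTCkP. Both ILTCkP libraries were several-fold above both CD8SP libraries, with a log2 fold change of 2.60 ± 0.36 (SE; edgeR adjusted p = 0.0188). Bid (chr6:120891930-120916853, minus strand), whose product links death receptors to mitochondria, read 50.6 and 50.1 CPM in CD8SP and 123 and 140 CPM in ILTCkP. The CD8SP libraries were nearly equal and the groups far apart, with a log2 fold change of 1.38 ± 0.23 (SE; edgeR adjusted p = 0.0296). Bcl2l11, which encodes BIM (chr2:128126038-128162547, plus strand), read 80.9 and 86.6 CPM in CD8SP and 194 and 184 CPM in ILTCkP. Again no library of a group reached the other, and the log2 fold change was 1.17 ± 0.21 (SE; edgeR adjusted p = 0.0382). Pmaip1, which encodes NOXA, did not go with them: it read 3.24 and 5.76 CPM in CD8SP and 2.76 and 3.83 CPM in ILTCkP, with a log2 fold change of -0.45 ± 0.52 (SE; edgeR adjusted p = 0.651). The rise of Bbc3, Bid and Bcl2l11 was called by edgeR, DESeq2 and limma-voom and under each scaling, filter and block tried. The edgeR calls depended on the CD8SP libraries: without CD8SP replicate 1 only Bbc3 was called (adjusted p = 0.0330; Bid 0.228, Bcl2l11 0.400), and without CD8SP replicate 2 none was (Bbc3 0.0555, Bid 0.320, Bcl2l11 0.407). The log2 fold changes themselves stayed between 2.35 and 2.82 for Bbc3, 1.28 and 1.48 for Bid and 1.14 and 1.22 for Bcl2l11 when any single library was left out.

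**Figure D2:**
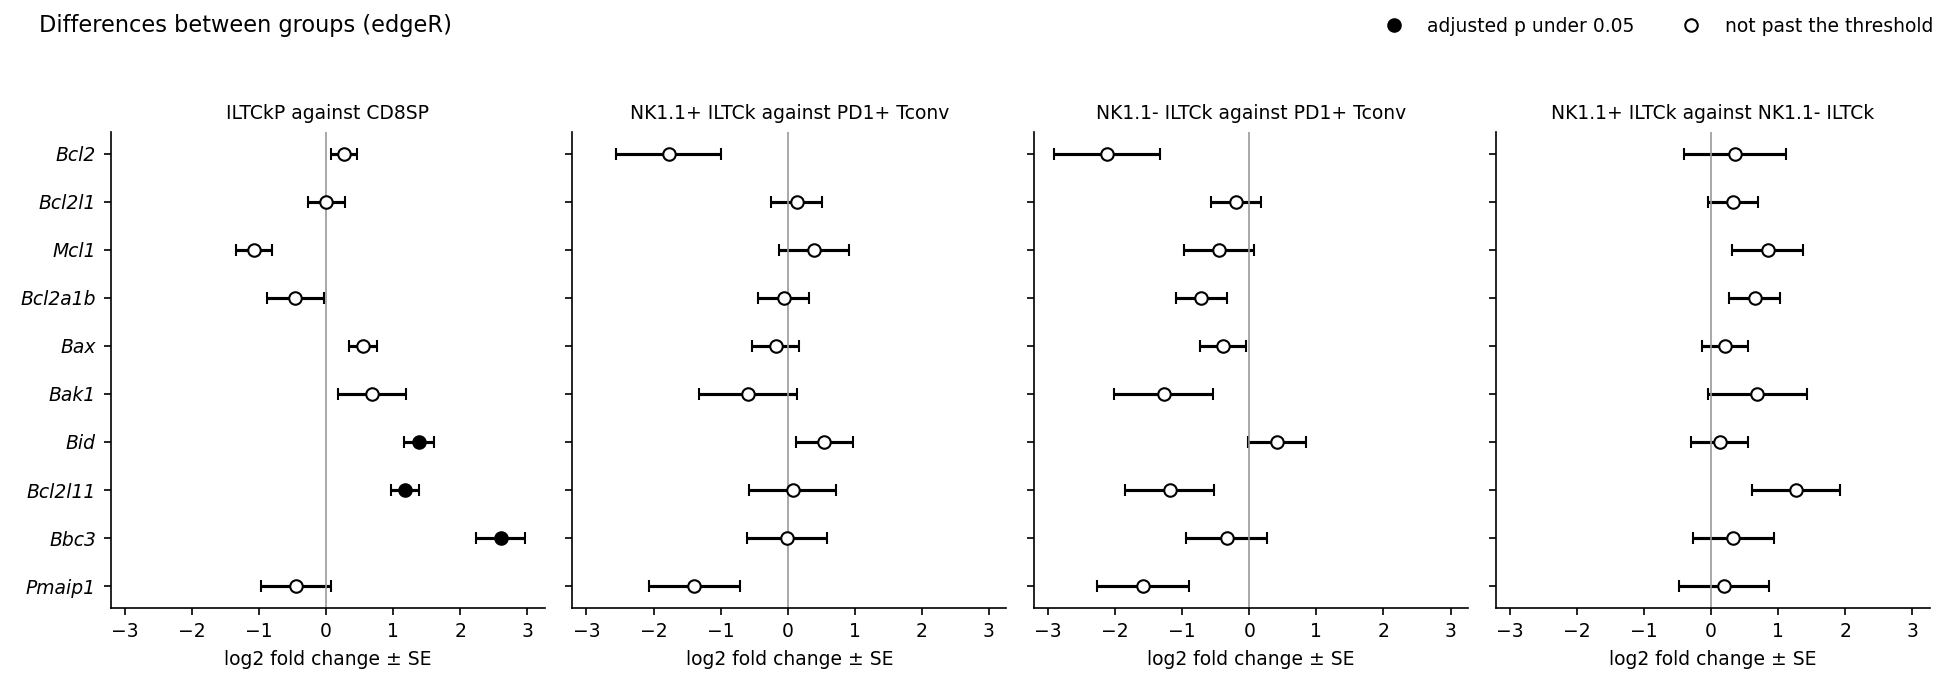
log2 fold change ± SE of the 10 genes in the 4 comparisons, from edgeR's quasi-likelihood test (filled points, adjusted p under 0.05; open points, not past the threshold). The 3 filled points are Bid, Bcl2l11 and Bbc3 in ILTCkP against CD8SP, and in the tumour table Bcl2 lies farthest from 0 in both comparisons with PD1+ Tconv.

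The sequences beside the start sites of the 3 genes that rose are shown because binding motifs of factors that act in T cells can be read in them. They are RefSeq promoter windows on GRCm38.p6, written along the gene's strand and without bases of annotated exons. Capitals mark matches on either strand to the letters TGTTTAC (FOXO factors), GCGTGGGCG or GCGGGGGCG (EGR factors), CACGTG (E-box), GGGCGG (GC-box) or AAAGGTCA (NBRE, bound by NR4A factors). The second EGR form shares bases with a GC-box wherever a G follows it, as it does in both printed windows that hold it.
Bcl2l11 window 1, chr2:128125788-128126037, plus strand: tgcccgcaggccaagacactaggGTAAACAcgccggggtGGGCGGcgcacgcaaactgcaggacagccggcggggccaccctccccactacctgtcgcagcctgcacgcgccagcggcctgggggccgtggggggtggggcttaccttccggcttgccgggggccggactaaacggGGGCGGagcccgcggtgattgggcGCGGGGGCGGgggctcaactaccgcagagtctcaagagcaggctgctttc
Bbc3 window 1, chr7:16309333-16309582, plus strand: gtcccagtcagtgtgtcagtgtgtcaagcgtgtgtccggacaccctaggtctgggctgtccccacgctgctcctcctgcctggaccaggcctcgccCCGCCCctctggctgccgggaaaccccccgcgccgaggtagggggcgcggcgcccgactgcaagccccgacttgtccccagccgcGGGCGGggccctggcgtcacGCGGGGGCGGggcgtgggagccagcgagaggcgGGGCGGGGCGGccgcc
Bbc3 window 2, chr7:16310011-16310260, plus strand: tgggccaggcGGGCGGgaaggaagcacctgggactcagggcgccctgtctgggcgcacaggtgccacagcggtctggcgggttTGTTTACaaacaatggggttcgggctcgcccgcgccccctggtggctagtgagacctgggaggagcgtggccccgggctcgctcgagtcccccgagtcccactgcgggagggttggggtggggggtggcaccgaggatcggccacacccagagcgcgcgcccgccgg
Bid window 1, chr6:120916854-120917074, minus strand: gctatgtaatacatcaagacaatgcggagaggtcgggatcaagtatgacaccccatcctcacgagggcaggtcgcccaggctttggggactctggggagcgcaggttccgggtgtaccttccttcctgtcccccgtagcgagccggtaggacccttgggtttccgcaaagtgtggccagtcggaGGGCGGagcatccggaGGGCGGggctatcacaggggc
The FOXO letters stood in Bcl2l11 window 1 and in Bbc3 window 2, 2 of the 14 windows searched for 9 of the 10 genes, against 3.17% of all 32851 promoter windows of 250 bases. The EGR letters stood in Bcl2l11 window 1 and in Bbc3 window 1, and in 3 of the 14 windows in all, against 3.06% of all windows. The remaining EGR window was that of Bcl2a1b, which was not called in the thymus. The E-box stood in 2 of the 14 windows, against 6.02% of all windows. The NBRE letters stood in 0 of the 14, against 1.34%. The Bid window held GC-boxes only, a motif found in 10 of the 14 windows and in 32.7% of all windows. Bcl2l11 window 2 and Bbc3 window 3, not printed, held neither the FOXO nor the EGR letters; both held GC-boxes, and the latter also an E-box. These matches describe letters and not bound sites.

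Ratios within a library do not depend on the scaling between libraries. Per kilobase of exon, Bcl2 stood at 4.79 and 4.28 times Bcl2l11 in CD8SP and at 2.43 and 2.40 times in ILTCkP. Mcl1 stood at 2.28 and 2.26 times Bcl2l11 in CD8SP and at 0.398 and 0.561 times in ILTCkP, so that Mcl1 was above Bcl2l11 in both conventional libraries and below it in both progenitor libraries. By contrast Bcl2 against Mcl1 was 2.10 and 1.89 in CD8SP and 6.12 and 4.27 in ILTCkP. The groups did not overlap in these 3 ratios, but the ratios restate the gene levels given above and are no separate result. No test was made of them.

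**Figure D3:**
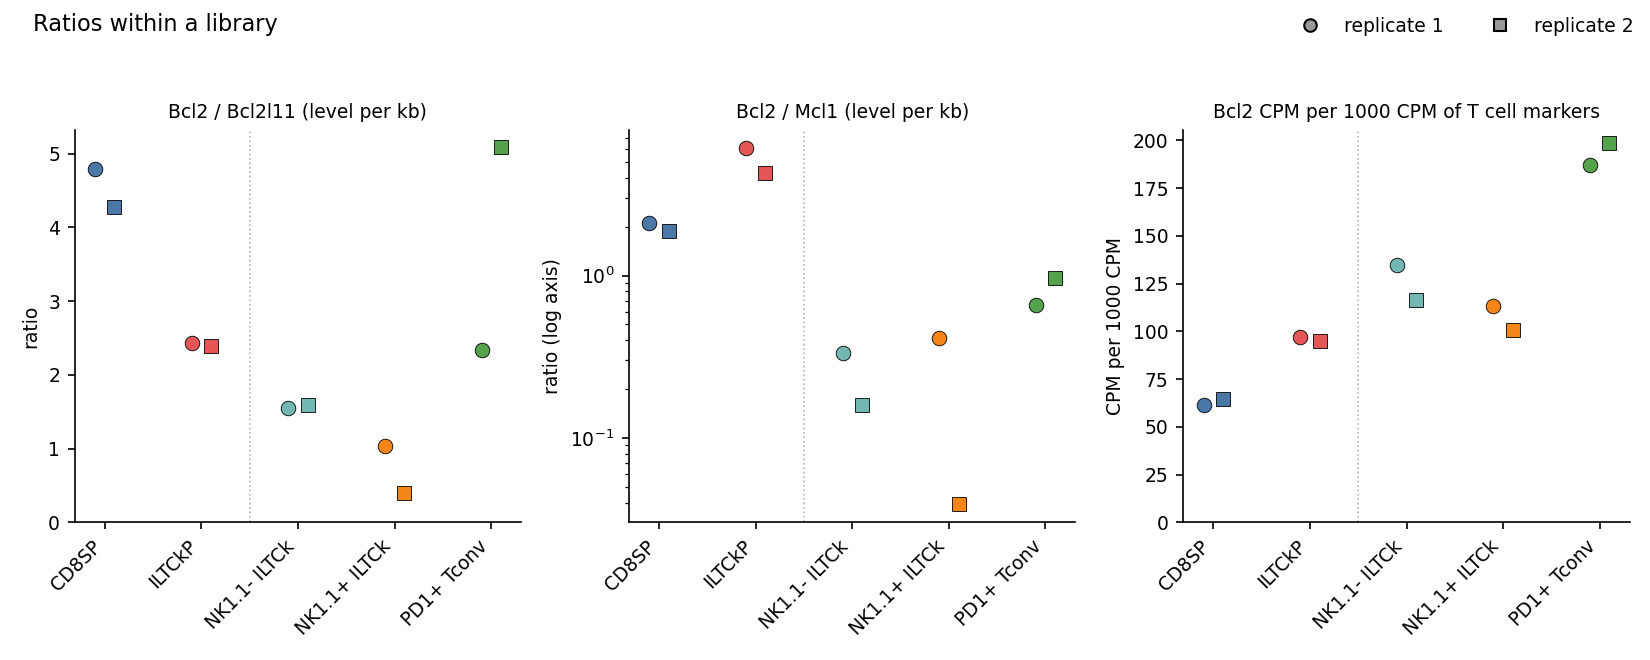
Ratios of levels within each library (circle, replicate 1; square, replicate 2; the middle panel has a log axis): Bcl2 over Bcl2l11 and Bcl2 over Mcl1, both per kilobase of exon, and Bcl2 CPM per 1000 CPM of the 5 summed T cell markers. Bcl2 over Bcl2l11 is lower in ILTCkP (2.43 and 2.40) than in CD8SP (4.79 and 4.28), and Bcl2 per T cell marker is highest in PD1+ Tconv (187 and 199).

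Around the 10 genes, 1 gene passed the test in each of 3 of 4 lists of related genes in the thymus, each higher in ILTCkP, beside 4.71% of all genes called and 3.38% called higher. Casp9, the initiator caspase of the mitochondrial pathway, rose from 13.9 and 13.4 CPM in CD8SP to 46.9 and 48.2 CPM in ILTCkP, a log2 fold change of 1.80 ± 0.28 (SE; edgeR adjusted p = 0.0272), as 1 of 16 apoptosome genes, caspases and caspase inhibitors. Tnfsf10, which encodes the death ligand TRAIL, rose from 17.7 and 18.7 to 57.2 and 103 CPM, by 2.14 ± 0.37 (log2, SE; edgeR adjusted p = 0.0353), as 1 of 12 death receptor pathway genes. Nfkb1, a subunit of NF-κB, rose from 57.3 and 50.3 to 307 and 228 CPM, by 2.31 ± 0.26 (log2, SE; edgeR adjusted p = 0.0108), as 1 of 16 known regulators of the family. Without CD8SP replicate 2 the edgeR adjusted p was 0.245 for Casp9 and 0.0567 for Tnfsf10, and without CD8SP replicate 1 it was 0.186 for Casp9, while Nfkb1 was called whichever library was left out. None of the 9 tested of 15 listed other BCL2 family genes was called, with 1 of 9 at an unadjusted p under 0.05 in edgeR and 0 of 9 called by DESeq2. At that unadjusted p stood 6 of 16, 4 of 12 and 6 of 16 genes of the other lists in the order given, and 22.1% of all genes. Their median log2 fold change was 0.74, and the medians of the 3 other lists were 0.10, 0.13 and 0.15 in the order given, against 0.01 for all genes.

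The tumour table asked how the ILTCk groups differ from PD1+ Tconv and from each other. Bcl2 was lower in both ILTCk groups than in PD1+ Tconv in every library, and Mcl1 was the member with the highest mean level per kilobase in all 3 groups. No member passed the test. EdgeR, fitted without a replicate block, called 0% of the 18091 genes tested in each of the 3 comparisons. At an unadjusted p under 0.05 in edgeR, 14.3% of genes stood out for NK1.1+ ILTCk against PD1+ Tconv, 11.9% for NK1.1- ILTCk against PD1+ Tconv and 3.94% for the ILTCk groups against each other, with 0, 1 (Bcl2) and 0 of the 10 members among them. DESeq2 called 7.01%, 3.91% and 0.315% of genes, and 0 of the 10 members in each. The first 2 comparisons share the PD1+ Tconv libraries.

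Bcl2 read 172 and 103 CPM in NK1.1- ILTCk, 298 and 53.3 CPM in NK1.1+ ILTCk and 706 and 495 CPM in PD1+ Tconv. The ILTCk groups overlapped each other, and every ILTCk library lay below both PD1+ Tconv libraries. Against PD1+ Tconv the log2 fold change was -2.13 ± 0.79 (SE; edgeR adjusted p = 0.391) for NK1.1- ILTCk and -1.77 ± 0.78 (SE; edgeR adjusted p = 0.367) for NK1.1+ ILTCk. Without the filter on low counts edgeR called both (adjusted p = 0.00796 and 0.0268). That fit called 799 and 1249 of all genes in these comparisons, against 0 with the filter. The second value moved from -3.49 without NK1.1+ ILTCk replicate 1 to -1.0 without its replicate 2, and the sign stayed negative for both under all 15 alternatives tried.

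The T cell marker sum moved with Bcl2. Per 1000 CPM of T cell markers in the same library, Bcl2 stood at 187 and 199 in PD1+ Tconv, against 135 and 117 in the NK1.1- ILTCk libraries and 113 and 101 in the NK1.1+ ILTCk libraries. The spread between libraries of a group was far smaller on this scale, and both ILTCk groups remained below PD1+ Tconv with no overlap. With the libraries scaled to these markers, an alternative chosen after seeing the data, the log2 fold changes of Bcl2 were -0.62 and -0.85 (NK1.1- and NK1.1+ ILTCk against PD1+ Tconv; edgeR adjusted p = 0.747 and 0.642), while the median of all genes moved to 1.49 and 1.70. The same quantity in the thymic table was 61.5 and 64.5 in CD8SP and 97.0 and 95.0 in ILTCkP. By these group values the highest was PD1+ Tconv, followed by NK1.1- ILTCk, NK1.1+ ILTCk, ILTCkP and last CD8SP, with no overlap between neighbours within a table. Across the tables this order also carries the T cell marker sum, 5287 to 7182 CPM in the thymus and 529 to 3772 CPM in the tumour table. In CPM alone Bcl2 read 422 to 538 in the thymic libraries, 53.3 to 298 in ILTCk and 495 to 706 in PD1+ Tconv.

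Mcl1 read 192 and 242 CPM in NK1.1- ILTCk, 268 and 511 CPM in NK1.1+ ILTCk and 400 and 192 CPM in PD1+ Tconv. The PD1+ Tconv libraries spanned both NK1.1- ILTCk libraries, and the highest value was in NK1.1+ ILTCk replicate 2, the library with the highest macrophage sum (17919 CPM) and the lowest T cell sum (529 CPM); the part of those cells in the value was not tested. The log2 fold change of NK1.1+ against NK1.1- ILTCk was 0.84 ± 0.53 (SE; edgeR adjusted p = 1.00), and 0.31 without that library. Bcl2l1 was the steadiest survival gene, at 57.3 and 47.0 CPM in NK1.1- ILTCk, 74.0 and 57.1 CPM in NK1.1+ ILTCk and 69.8 and 49.6 CPM in PD1+ Tconv, with a range of group means of 0.32 on the log2 scale, the smallest of the 10. In each of the 3 comparisons its log2 fold change was within 0.33 of 0.

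Bcl2a1b (chr9:89199209-89207827, plus strand) is a mouse copy of the A1 gene, and its near-identical neighbours Bcl2a1a and Bcl2a1d make its own count uncertain. The first 120 coding bases of the 3 genes, from GENCODE M21 transcripts, show how little separates them, and capitals mark the 7 positions here at which they differ, of 12 in the 516 coding bases.
Bcl2a1a: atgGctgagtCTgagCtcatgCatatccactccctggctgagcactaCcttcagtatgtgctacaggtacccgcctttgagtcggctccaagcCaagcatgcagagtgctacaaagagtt
Bcl2a1b: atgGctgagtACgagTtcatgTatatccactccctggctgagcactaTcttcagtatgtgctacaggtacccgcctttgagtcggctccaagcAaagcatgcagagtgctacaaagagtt
Bcl2a1d: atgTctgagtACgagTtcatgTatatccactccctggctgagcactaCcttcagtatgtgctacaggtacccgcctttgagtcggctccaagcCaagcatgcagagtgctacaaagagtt
Over the whole coding sequence Bcl2a1b was 97.9% identical to Bcl2a1a and 98.8% to Bcl2a1d. Of its 50-base stretches, 79.2% occurred in transcripts of other genes, and 49.1% of its exon bases lay in exons of Gm29094 on the same strand. The labels do not say how reads that match several genes were counted. As counted, Bcl2a1b read 17.9 and 23.6 CPM in NK1.1- ILTCk, 36.4 and 28.9 CPM in NK1.1+ ILTCk and 36.2 and 31.9 CPM in PD1+ Tconv. The NK1.1- libraries lay below the other 4, at a log2 fold change of -0.71 ± 0.38 (SE; edgeR adjusted p = 0.491) against PD1+ Tconv. The 3 copies summed to between 61.5 and 105 CPM in the tumour table and between 6.62 and 10.6 CPM in the thymus. Their split differed by group: Bcl2a1a took 20.0% and 19.7% of the sum in NK1.1+ ILTCk, against 14.5% and 12.6% of it in NK1.1- ILTCk, only 1.22% and 5.95% in PD1+ Tconv and at most 2.39% in the thymus. The macrophage marker sum moved with that share, at 6362 and 17919, 2915 and 2570, and 143 and 911 CPM in the same 6 tumour libraries, and its part in the split was not tested.

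**Figure D4:**
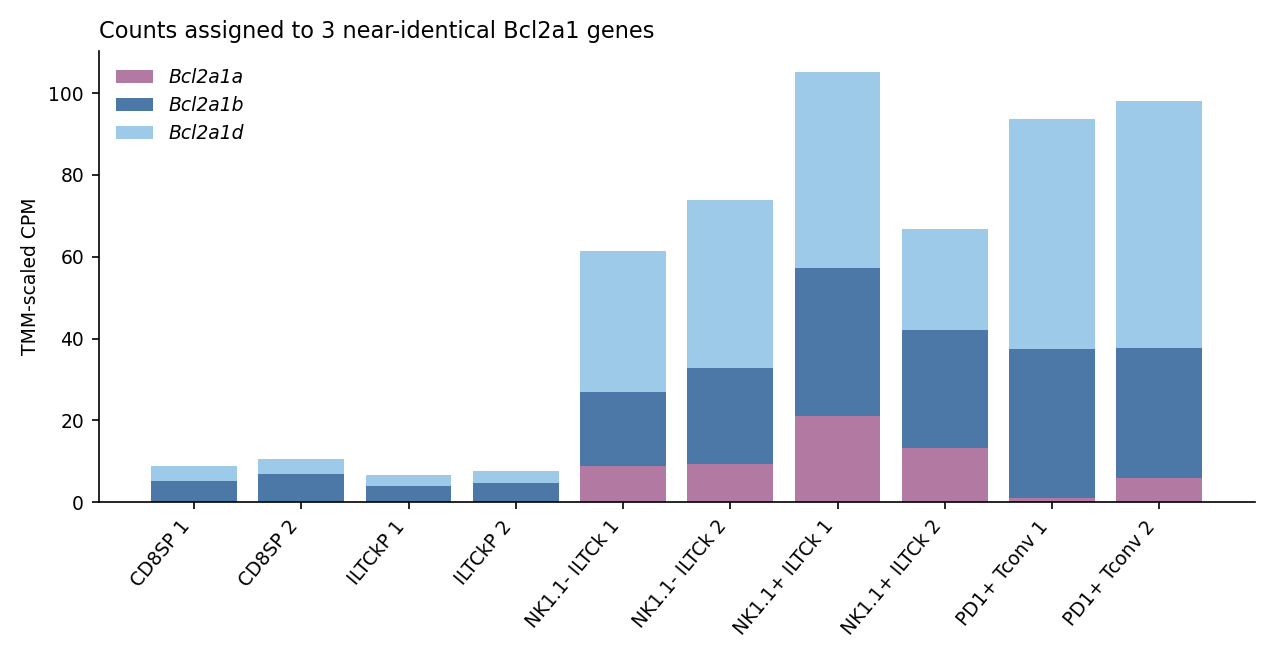
TMM-scaled CPM assigned to Bcl2a1a, Bcl2a1b and Bcl2a1d in each library, stacked, with the thymic and tumour tables normalized separately. The sum lies between 6.62 and 10.6 CPM in the 4 thymic libraries and between 61.5 and 105 CPM in the 6 tumour libraries, and the Bcl2a1a segment is widest in NK1.1+ ILTCk.

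Of the pore formers, Bax varied little between the tumour-table groups and Bak1 varied more, at low levels. Bax read 62.0 and 61.0 CPM in NK1.1- ILTCk, 61.4 and 80.9 CPM in NK1.1+ ILTCk and 79.3 and 81.9 CPM in PD1+ Tconv. Both NK1.1- libraries lay below PD1+ Tconv, at a log2 fold change of -0.39 ± 0.35 (SE; edgeR adjusted p = 0.680). Bak1 was at 1.98 and 0.867 CPM in NK1.1- ILTCk, 2.32 and 2.30 CPM in NK1.1+ ILTCk and 2.99 and 3.97 CPM in PD1+ Tconv. The 3 groups did not overlap for Bak1, with PD1+ Tconv highest, but its log2 fold changes against PD1+ Tconv, -1.28 ± 0.74 (NK1.1- ILTCk) and -0.59 ± 0.73 (NK1.1+ ILTCk; both SE), had edgeR adjusted p of 0.525 and 0.777. The first moved between -1.99 and -0.77 without NK1.1- ILTCk replicate 1 or 2. Scaled to T cell markers the Bak1 values were 0.10 and 1.12, with the median of all genes at 1.49 and 1.70.

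Among the BH3-only genes, Bcl2l11 read 97.3 and 56.7 CPM in NK1.1- ILTCk, 253 and 117 CPM in NK1.1+ ILTCk and 266 and 85.4 CPM in PD1+ Tconv. Both NK1.1+ libraries were above both NK1.1- libraries, at a log2 fold change of 1.26 ± 0.66 (SE; edgeR adjusted p = 1.00) that was 0.60 without NK1.1+ ILTCk replicate 1 and 1.71 without its replicate 2. The PD1+ Tconv libraries were too far apart to be set above or below either. Pmaip1 read 26.6 and 12.4 CPM in NK1.1- ILTCk, 15.9 and 28.8 CPM in NK1.1+ ILTCk and 89.9 and 27.1 CPM in PD1+ Tconv. The 2 PD1+ Tconv libraries were far apart, and the lower of them read below NK1.1+ ILTCk replicate 2. The log2 fold changes of -1.59 ± 0.69 and -1.39 ± 0.68 (SE; edgeR adjusted p = 0.424 and 0.414) for NK1.1- and NK1.1+ ILTCk shrank to -0.46 and -0.26 without PD1+ Tconv replicate 1. Bid ranged from 21.6 to 51.0 CPM and Bbc3 from 4.01 to 8.12 CPM over the 6 libraries. For both genes the 3 groups overlapped, and the Bbc3 libraries were all below the 24.1 CPM of the lower ILTCkP library of the separately normalized thymic table.

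Over the family, 9 of 10 genes had negative log2 fold changes for NK1.1- ILTCk against PD1+ Tconv, as did 9445 of all 18091 genes. The median was -0.58 (all genes, -0.04). Scaled to T cell markers, where the median of all genes moved to 1.49, all of these 9 but Bcl2 turned positive. The 5 genes Bcl2, Bcl2a1b, Bax, Bak1 and Pmaip1 had libraries all below PD1+ Tconv and 0 all above, against 22.7% and 23.1% of all genes. For NK1.1+ ILTCk 6 of 10 were negative, against 9317 of all 18091 genes, with a median of -0.03 (all genes, -0.04). On the T cell marker scale all of these 6 but Bcl2 turned positive too. Bcl2 and Bak1 lay wholly below PD1+ Tconv, against 20.8% of all genes, while 0 lay wholly above, against 20.7%. All 10 were positive for NK1.1+ against NK1.1- ILTCk, against 9146 of all 18091 genes, with a median of 0.34 (all genes, 0.01). Of these, Mcl1, Bcl2a1b, Bak1 and Bcl2l11 did not overlap, against 18.6% of all genes, while the sign of Bcl2 turned with limma-voom (-0.08) and with the scaling to T cell markers (-0.23).

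Within the tumour libraries Bcl2 over Bcl2l11 per kilobase was 2.33 and 5.08 in PD1+ Tconv, against 1.55 and 1.59 in the NK1.1- ILTCk libraries and 1.03 and 0.400 in the NK1.1+ ILTCk libraries. No groups overlapped, with NK1.1+ ILTCk lowest and PD1+ Tconv highest. Bcl2 over Mcl1 was 0.660 and 0.962 in PD1+ Tconv, against 0.334 and 0.159 in the NK1.1- ILTCk libraries and 0.415 and 0.0389 in the NK1.1+ ILTCk libraries, below 1 in these 6 libraries and above 1 in the 4 thymic libraries. With the longest transcript as the length in place of all exon bases, Bcl2 over Mcl1 was 1.22 in PD1+ Tconv replicate 2. It stayed on the same side of 1 in the other 9 libraries. NK1.1+ ILTCk replicate 2, lowest in both ratios, had the lowest T cell sum (529 CPM) and the highest macrophage sum (17919 CPM). The part of other cells in these ratios was not tested, and no test was made of the ratios. The thymic and tumour tables also differ in mouse model.

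Levels per kilobase of exon put the members in a different order in the tables. Bax was the highest of the 10 in both thymic groups, at 99.4 ± 0.897 CPM per kilobase in CD8SP and 146 ± 15.5 in ILTCkP (SD, n = 2), and Bcl2 was next in both, at 47.2 ± 1.51 and 56.8 ± 2.74. In the tumour table Mcl1 led, at 86.6 ± 43.0 CPM per kilobase in PD1+ Tconv, against 63.5 ± 10.2 for NK1.1- ILTCk and 114 ± 50.1 for NK1.1+ ILTCk (SD, n = 2). Bcl2 was next to Mcl1 only in PD1+ Tconv, at 65.6 ± 16.3, a difference within the spread of Mcl1. Bcl2 stood at 15.0 ± 5.33 and 19.2 ± 18.9 in NK1.1- and NK1.1+ ILTCk. With the longest transcript as the length, Mcl1 still had the highest group means in the tumour table. In PD1+ Tconv replicate 2, however, Bax (74.4) and Bcl2 (68.8) then lay above Mcl1 (56.2). In NK1.1- ILTCk replicate 1 Bax (56.3) was level with Mcl1 (56.2). Bid moved up from 14.2 ± 0.109 in CD8SP to 37.0 ± 3.43 CPM per kilobase in ILTCkP, and Pmaip1 was lowest in both thymic groups, at 1.65 ± 0.652 and 1.21 ± 0.277. Some exon bases are shared with other genes, 25.5% of Bak1 (Ggnbp1), 17.7% of Bid (Bcl2l13) and 6.09% of Bcl2 (D630008O14Rik) on the opposite strand and 12.2% of Bax (Gm45808) on the same strand, and the labels do not say whether counting used the strand.

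The genes most like 3 members across the 6 tumour libraries were found by the smallest root mean square difference between centred log2 CPM profiles among 7636 genes. For Bcl2, which had the widest range of group means (2.23 on the log2 scale), they were Spn (0.17), Gbp8 (0.17) and Gimap1 (0.18). For Pmaip1 they were Adgrg1 (0.26), Tnrc18 (0.28) and Atxn2l (0.32), and for Bak1 they were Agpat4 (0.21), Pofut1 (0.22) and Zfp217 (0.23). All of these profiles share the same 6 libraries and their depth.

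No gene of the 4 related lists was called by edgeR in the tumour table either. For NK1.1+ ILTCk against PD1+ Tconv, the lists gave 1 of 13 other family members, 3 of 16 apoptosome and caspase genes, 1 of 12 death receptor genes and 2 of 16 regulators at an unadjusted p under 0.05, against 14.3% of all genes, and DESeq2 called 0. Bcl2a1a had a log2 fold change of 2.31 ± 0.80 (SE; edgeR adjusted p = 0.276) for NK1.1+ ILTCk against PD1+ Tconv. That value was 1.57 without PD1+ Tconv replicate 1 and 3.86 without its replicate 2. Without the filter on low counts edgeR called Bcl2a1a (adjusted p = 0.0268), in a fit that called 1249 of all genes. Casp9 read 30.0 and 41.5 CPM in NK1.1+ ILTCk, above the 13.3 to 17.6 CPM of NK1.1- ILTCk and the 11.8 to 16.4 CPM of PD1+ Tconv, with log2 fold changes of 1.21 ± 0.43 and 1.34 ± 0.43 (SE; edgeR adjusted p = 1.00 and 0.254). For NK1.1- ILTCk against PD1+ Tconv, 0 of 13, 2 of 16, 1 of 12 and 3 of 16 genes of the lists had an unadjusted p under 0.05, against 11.9% of all genes, and between the ILTCk groups 0, 1, 0 and 1 did, against 3.94%.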

How the data were processed

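Bulk RNA sequencing gave the raw gene counts that the authors deposited in 2 tables, with 10 libraries in all. The submitters' processing notes name mm10 as the genome and DESeq. Names of the aligner and counter, strand setting and annotation were not given in the sources used here. Each table was fitted on all its genes with edgeR 4.0.16 in R 4.3.3 (filterByExpr, TMM, robust glmQLFit, glmQLFTest, Benjamini-Hochberg over all genes tested, no minimum fold), and all 6 tumour-table libraries entered the fit of each tumour comparison. The code was tested on simulated counts. Alternatives were DESeq2 1.42.0, limma-voom (limma 3.58.1), RLE and upper-quartile scaling, no filter, a minimum of 50 counts in 2 libraries, a block for the replicate number, the 4 compared libraries alone, each library left out in turn and, chosen after seeing the data, scaling to summed T cell markers. Exon lengths (all exon bases of a gene, or its longest transcript as an alternative), coordinates and coding sequences came from GENCODE M21.

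The 10 genes, the lists and the markers were chosen with earlier results of these data known. Named from the lists were up to 6 called genes per comparison or, where none was called, up to 4 with the largest fold, logCPM averaging 3 or more and no overlap of libraries; Casp9, called in the thymus, was followed in the tumour table. A further gene named by this rule is not reported here. Likeness was sought for the 3 members with the widest range of tumour group means, among genes with logCPM averaging 4 or more; receptor or immunoglobulin segments, Gm and Rik symbols, mitochondrial genes and ribosomal proteins were left out. Further marker lists (neutrophil, B cell, double-positive thymocyte, erythroid and stromal) were summed but are not described. Depth limits low genes such as Bak1, which had 19 to 284 counts per library. Counts of genes whose symbols start with mt- summed to 0 in every library. That sum does not tell genes without counts from genes left out of the deposited counts.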

Additional observations from a re-analysis of the deposited data

How the results depend on the processing

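In ILTCkP against CD8SP, edgeR called 689 of 14634 genes (71.8% higher), and 3 of the 10 members. DESeq2 called 1997 genes, the fit without a filter 2535 and the fit with a replicate block 2212, and leaving out single libraries gave 592 to 7017 genes and 0 to 6 members; an arm of 1 library was assumed to vary like the other group. Scaled to T cell markers, 933 genes were called (86.3% higher) and the median of all genes rose from 0.01 to 0.35. In the tumour table the main count was 0 genes and 0 members in each comparison. For NK1.1+ ILTCk against PD1+ Tconv, DESeq2 called 1268 genes, limma-voom 3, the fit without a filter 1249 (and 1 member, Bcl2), the replicate block 755, the T cell marker scaling 544, and single libraries left out 0 to 35. For NK1.1- ILTCk against PD1+ Tconv the counts were 707 with DESeq2, 799 without a filter (and 1 member, Bcl2), 298 with the replicate block and 27 with the T cell marker scaling. Between the ILTCk groups, DESeq2 called 57 genes and the fit without a filter 167. With the replicate block, Mcl1 in the thymus (adjusted p = 0.0212 in edgeR) was the only member whose call changed. The labels do not say that a replicate number marks a shared animal or batch, so no pairing was assumed; deviations of same-numbered libraries correlated across genes at 0.09 in the thymus and, for each pair of groups in the tumour table, at 0.32 to 0.36. Signs of log2 fold changes that were not called turned as follows. Scaled to T cell markers, with medians of all genes of 1.49 and 1.70, values for NK1.1- ILTCk against PD1+ Tconv were Bak1 0.10, Bax 1.13, Bbc3 1.21, Bcl2a1b 0.86, Bcl2l1 1.35, Bcl2l11 0.42, Mcl1 1.21, Pmaip1 0.0052 and Rel 0.012, and for NK1.1+ ILTCk against PD1+ Tconv they were Bak1 1.12, Bax 1.71, Bbc3 2.00, Bcl2a1b 1.61, Huwe1 0.14 and Pmaip1 0.80. Between the ILTCk groups Bcl2 was -0.23 on that scale and -0.076 with limma-voom. Bbc3 in NK1.1+ ILTCk against PD1+ Tconv was 0.0063 without a filter, 0.058 with the replicate block and 0.035 with upper-quartile scaling, which gave -0.0020 for Bcl2l1 in the thymus. Leaving out single libraries gave ranges across 0 for NK1.1+ against NK1.1- ILTCk in Bax (-0.0052 to 0.40), Bcl2 (-1.37 to 1.12), Bid (-0.10 to 0.33) and Pmaip1 (-0.30 to 0.86). For NK1.1+ ILTCk against PD1+ Tconv it did so in Bax (-0.39 to 0.015), Bbc3 (-0.38 to 0.46), Bcl2a1b (-0.23 to 0.10), Bcl2l1 (-0.12 to 0.42), Bcl2l11 (-0.59 to 1.13) and Mcl1 (-0.14 to 1.04). For NK1.1- ILTCk against PD1+ Tconv it did so in Bbc3 (-0.68 to 0.13), Bcl2l1 (-0.43 to 0.091) and Mcl1 (-0.90 to 0.19), and in the thymus in Bcl2l1 (-0.20 to 0.26) and Pmaip1 (-0.79 to 0.022). The cause was not tested.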
